A study of Rattus norvegicus with 29 samples.

Results

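Chromatin accessibility after methamphetamine (METH) was compared between Ammon's horn (CA) and the dentate gyrus (DG), neighbouring subfields of the hippocampus, in 8 ATAC-seq libraries, 4 from each, out of 29 libraries of 4 brain regions in the whole series. The libraries were chosen by their sample titles, and in each pair of equal replicate number DG and CA came from the same animal. The animals were adult male Sprague-Dawley rats that carried no transgene named in the labels. They received METH at 10 mg/kg by intraperitoneal injection, 4 times at 2 h intervals, and were killed the day after the last injection. Both tissues were scooped out of chilled posterior brain and then fast-frozen, so each library can hold all cell types of its subfield. The 8 DG and CA libraries of the saline rats (1 mL/kg on the same schedule) served as the background measured in the same way. The marker genes of granule cells and pyramidal cells could not be placed on the open chromatin regions (OCRs), because an rn6 gene annotation was not used here, and the tissue labels were therefore not checked against markers.

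DG is made mainly of granule cells, whose axons, the mossy fibres, end on the pyramidal cells of CA3, and the pyramidal cells of CA3 project in turn to those of CA1. Granule cells and pyramidal cells are both glutamatergic, but they differ in the transcription factors and channels they express, and DG also holds a niche in which neurons are born in the adult. METH releases dopamine and other monoamines from nerve terminals. In ATAC-seq a transposase cuts DNA that is not wrapped in nucleosomes, and the number of reads over an OCR is taken as its accessibility. In bulk tissue, fewer cells of a type and less open chromatin per cell cannot be told apart.

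The DG METH libraries held 14.3, 13.7, 9.30 and 11.2 M counts in OCRs (1 M is 1000000 counts) in replicates 1 to 4, and the CA METH libraries held 13.2, 12.6, 18.8 and 19.1 M. The totals overlapped, and CA was higher in 2 of 4 animals. The DG mean was 12.1 ± 2.296 M (SD, n = 4) and the CA mean was 15.9 ± 3.51 M (SD, n = 4), a difference of -3.77 M with a two-sided exact permutation p of 0.171 (paired sign-flip exact p = 0.5). The names that the peaks carry hold a tag spelt in 2 ways that differ in letter case alone. The spelling was taken here as 2 library sets, of which set 1 holds replicates 1 and 2 and set 2 holds replicates 3 and 4. The labels do not state what the tag means. DG minus CA was 1.11 M in set 1 and -8.65 M in set 2, so the deeper CA libraries were those of set 2 alone.

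Fewer peaks were called in DG than in CA in every animal. The DG METH libraries had 58378, 73126, 83483 and 63363 peaks in replicates 1 to 4, and the CA METH libraries had 87870, 75897, 110968 and 125177. The groups overlapped through DG replicate 3, which had more peaks than CA replicate 2. DG minus CA was -30391 peaks on average, -16132 in set 1 and -44650 in set 2 (two-sided exact permutation p = 0.0571, against a smallest possible p of 0.0286). The paired test gave p = 0.125, the smallest that 4 animals allow in a sign-flip exact test. Adjusted by Benjamini and Hochberg over the 3 library measures, these values were 0.171 and 0.375.

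The top-decile share, the percentage of a library's counts taken by the 10% most accessible OCRs, measured how far a library's counts were concentrated. It was 63.0, 59.2, 46.8 and 57.6% in DG replicates 1 to 4 and 50.1, 55.3, 49.98 and 45.7% in CA replicates 1 to 4. All DG libraries except replicate 3 lay above all CA libraries, and DG replicate 3 lay below 3 of the 4 CA libraries. The difference of 6.38 percentage points did not exceed the spread between libraries (exact permutation p = 0.171, paired exact p = 0.25), and DG was higher in 3 of 4 animals. It was 8.36 points in set 1 and 4.39 points in set 2, and 9.65 points without DG replicate 3 (exact permutation p = 0.0571). After saline the means were 51.4% in DG and 51.0% in CA.

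**Figure D1:**
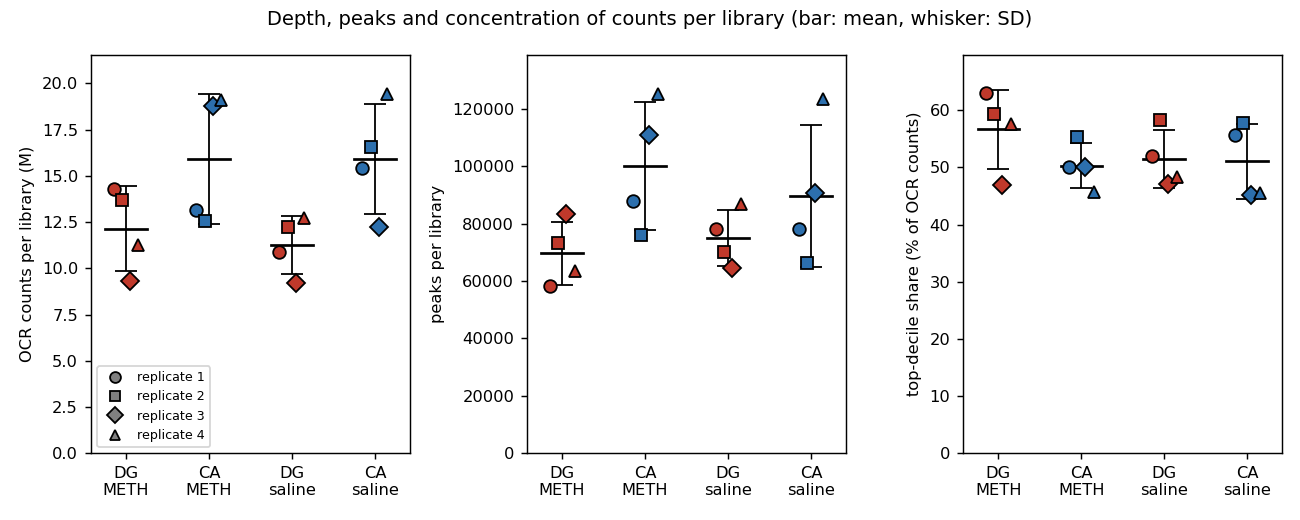
Total OCR counts in M (left), peaks called (middle) and the top-decile share in percent of OCR counts (right) in each DG and CA library after METH or saline. Symbols mark replicate numbers, horizontal bars the means and whiskers the SD of 4 libraries. DG METH replicate 3 had the lowest total and the lowest top-decile share of its group.

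DG METH replicate 3 stood apart from the libraries of its own group. The correlation of its log2 counts per M (CPM) over all OCRs was 0.729, 0.825 and 0.702 with DG replicates 1, 2 and 4, whereas it was 0.886 with CA replicate 3 and 0.922 with CA replicate 4. These correlations are across OCRs and describe the libraries. Pairs of DG libraries correlated at 0.702 to 0.950 (median 0.855), pairs of CA libraries at 0.832 to 0.927 (median 0.876), and DG with CA libraries at 0.687 to 0.943 (median 0.838). The ranges overlapped almost entirely. CA replicate 2 also correlated less with most of its own group, at 0.880, 0.902 and 0.832 with CA replicates 1, 3 and 4. It correlated at 0.919, 0.943 and 0.903 with DG replicates 1, 2 and 4. Whether DG replicate 3 or CA replicate 2 is an exchanged or mislabelled tissue, or holds a mixture of both subfields, was not tested. Each DG to CA value below carries that doubt. The next paragraphs therefore give the main results with and without DG replicate 3, and some of them without CA replicate 2.

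The first principal component of log2 CPM took 62.4% of the variance and did not separate DG from CA. DG replicates 1, 2, 3 and 4 lay at 255, 39.8, -180 and 242 on it, and CA replicates 1, 2, 3 and 4 at -87.5, 35.3, -103 and -200. The order of the libraries along this component followed that of the top-decile share, apart from an exchange of DG replicates 2 and 4. Region took 22.1% of the total variance (exact permutation over the splits of 8 libraries, p = 0.2). The share between the 4 animals was 34.2% and that between the library sets 18.0%, and neither was tested. A factor with more groups takes a larger share by that alone, so the share of the animals cannot be ranked against the others. Once each animal's mean was removed, region took 33.6% of what remained (exact p = 0.5 over flips within animals). Without DG replicate 3 the share of region was 44.5% (exact permutation p = 0.0857), and without DG replicate 1 it was 15.8% (exact permutation p = 0.4). Without CA replicate 2 it was 28.8% (exact permutation p = 0.171).

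**Figure D2:**
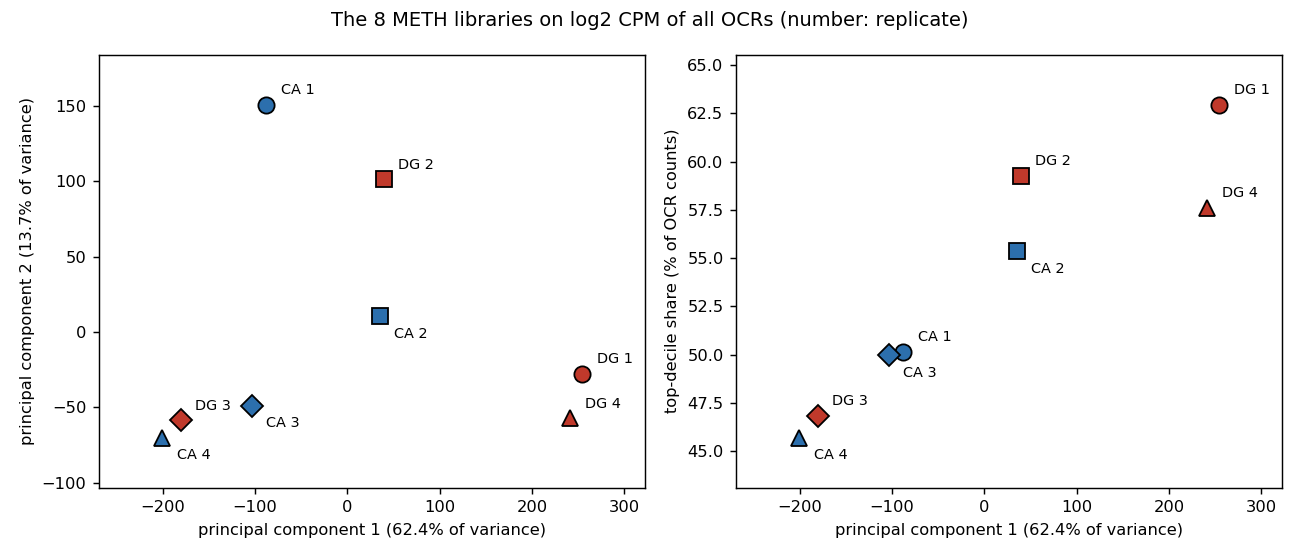
The 8 METH libraries on the first principal component of log2 CPM against the second component (left) and against the top-decile share in percent of OCR counts (right). Red marks DG, blue marks CA and numbers are replicates. DG replicate 3 lies among the CA libraries at -180, and CA replicate 2 lies beside DG replicate 2.

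In the upper-quartile fit no OCR passed the threshold between DG and CA after METH, a fold change above 2 with a Benjamini-Hochberg FDR under 0.01 in edgeR's quasi-likelihood test. Of 98237 OCRs, 95109 had enough counts to be tested, and 0 (0%) were called higher in DG and 0 (0%) higher in CA. The lowest FDR was 0.521. At an unadjusted p under 0.05 there were 2197 OCRs (2.31%) higher in DG and 4437 (4.67%) higher in CA. DESeq2 also called 0, and 12063 OCRs had an unadjusted p under 0.05 by it. With the animal as a replicate block edgeR called 0, and 749 OCRs higher in DG and 3230 higher in CA had an unadjusted p under 0.05. The study's own normalization also removes factors by RUVr, from the residuals of a first fit, with a number of factors not given in its methods. With 1 such factor edgeR called 0, and 8121 OCRs had an FDR under 0.05. With 2 factors 310 of the 95109 OCRs were called higher in DG and 6061 higher in CA, and 26002 had an FDR under 0.05. The median standard error (SE) of a log2 fold change was 0.40 in the upper-quartile fit.

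The number of OCRs with a low unadjusted p depended on single libraries. The 6634 OCRs of both directions became 36934 without DG replicate 3, of which 15826 were higher in DG and 21108 higher in CA, and the lowest FDR was then 0.0655, with 0 called. Without any 1 of the other 7 libraries the count ran from 2127 (without DG replicate 1) to 12465 (without CA replicate 2). It was 7142 in library set 1 alone and 2001 in set 2 alone. DG was the higher side for 33.1% of the 6634 OCRs, for 41.1% with TMM normalization, for 46.2% with relative log expression size factors, for 50.1% by DESeq2 and for 55.7% with loess offsets, which remove the trend with signal level. It was 73.9% in set 1 and 8.10% in set 2. The excess of OCRs higher in CA therefore changed with the scaling and the library set.

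The median log2 fold change of all OCRs, DG minus CA, was -0.11, with -0.05 under TMM normalization and 0.00 with loess offsets. It changed with the level of accessibility. In the decile of OCRs with the highest mean CPM the median log2 fold change was 0.35, and in the second lowest decile it was -0.47. The highest decile held 549 OCRs higher in DG at an unadjusted p under 0.05 (5.59% of those tested there) and 16 higher in CA (0.163%), whereas the second lowest decile held 40 (0.407%) and 635 (6.47%). OCRs higher in DG at this p had a median width of 784 bp and a median of 8.65 CPM, and those higher in CA a median width of 635 bp and 3.48 CPM, compared with 670 bp and 4.27 CPM for all OCRs tested.

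This gradient differed among the animals. The median log2 CPM difference between DG and CA in the highest decile was 0.71 in the animal of replicate 1, 0.26 in that of replicate 2, -0.18 in that of replicate 3 and 0.50 in that of replicate 4. In the second lowest decile it was -0.82, -0.06, 0.16 and -1.29. The animals of replicates 1 and 4 carried most of the gradient, that of replicate 2 had a weak one, and that of replicate 3 had the opposite one. The top-decile share, which moved with the gradient, was higher in DG than in CA in replicates 1, 2 and 4 and lower in replicate 3, and its part in the OCR differences cannot be told apart from that of region in these libraries. When the top-decile share entered as a covariate, 2054 OCRs had an unadjusted p under 0.05. Without DG replicate 3 the medians of the highest and second lowest decile were 0.48 and -0.91. The saline libraries had medians of 0.06 and 0.10 in the same deciles.

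**Figure D3:**
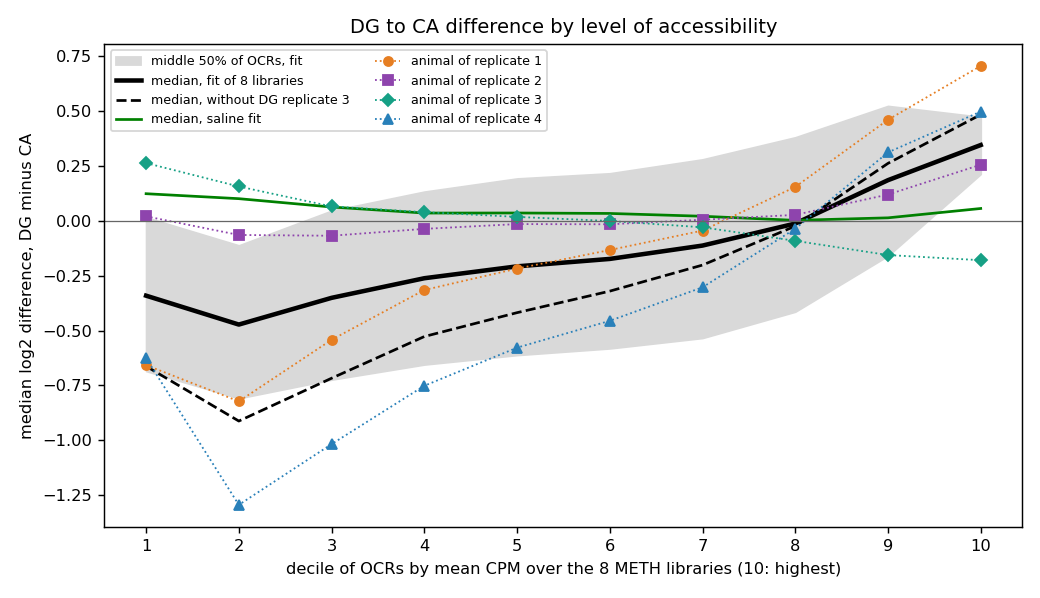
Median log2 difference between DG and CA (vertical axis, DG minus CA) in 10 equal groups of OCRs ordered by mean CPM over the METH libraries (horizontal axis, 10 is the highest). The black line is the fit to 8 libraries with the middle 50% of OCRs shaded, the dashed line omits DG replicate 3, dotted lines are single animals and the green line is the saline fit. The METH fit goes from -0.47 in the second lowest decile to 0.35 in the highest, and the animal of replicate 3 goes the other way.

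Single OCRs were next examined in the order of their p, among those with a mean of at least 1 CPM whose DG and CA values did not overlap. None of them was called in the upper-quartile fit. Over all OCRs tested, 774 (0.814%) had every DG library above every CA library and 1931 (2.03%) had every CA library above every DG library. The 8 with the lowest p in each direction are described here, and each had an edgeR FDR of 0.521. The 8 OCRs higher in CA had log2 fold changes of -2.45 to -1.31, and the 8 higher in DG had log2 fold changes of 0.77 to 1.47. With 2 RUVr factors all 8 higher in CA and 7 of the 8 higher in DG were called. Genes near these OCRs were not assigned.

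The OCR with the lowest p was higher in CA and lay at rn6 chr1:197161582-197163073. It had 7.86, 8.28, 9.86 and 9.07 CPM in DG replicates 1 to 4 and 16.2, 16.3, 27.8 and 26.2 CPM in CA replicates 1 to 4. The DG values lay close together, and the CA values of library set 2 were above those of set 1. The means were 8.77 ± 0.884 CPM (SD, n = 4) and 21.6 ± 6.26 CPM (SD, n = 4), a log2 fold change of -1.31 and an SE of 0.26 (edgeR unadjusted p = 0.000379, FDR = 0.521). All 8 libraries had a peak there, so the difference was one of degree. The OCR at rn6 chr16:79739097-79739933 had 4.26, 7.11, 9.38 and 7.41 CPM in DG replicates 1 to 4 and 16.8, 13.5, 24.5 and 26.8 CPM in CA replicates 1 to 4, with a peak in 3 DG libraries and all 4 CA libraries, and a log2 fold change of -1.54 and an SE of 0.32 (edgeR FDR = 0.521).

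The largest fold change among these OCRs was at rn6 chr10:45344243-45344687, with 0.669, 0.9197, 0.861 and 0.926 CPM in DG replicates 1 to 4 and 1.61, 3.199, 7.51 and 6.07 CPM in CA replicates 1 to 4. It had a peak in 3 CA libraries and in no DG library, and CA replicate 1 lay much nearer to the DG values than CA replicates 3 and 4. The fit gave a log2 fold change of -2.45 and an SE of 0.51 (edgeR FDR = 0.521). The OCR at rn6 chr3:10131347-10131836 had 0.752, 1.76, 1.15 and 0.833 CPM in DG replicates 1 to 4 and 5.04, 2.87, 4.06 and 5.0004 CPM in CA replicates 1 to 4, a log2 fold change of -1.92 and an SE of 0.40 (edgeR FDR = 0.521). A peak was called there in all 4 CA libraries and in no DG library. At rn6 chr10:55245173-55245587 the levels were 1.09, 0.752, 1.15 and 0.833 CPM in DG replicates 1 to 4 and 3.71, 2.21, 7.41 and 3.38 CPM in CA replicates 1 to 4, again with a peak in every CA library and no DG library. The fit gave a log2 fold change of -2.14 and an SE of 0.45 (edgeR FDR = 0.521), and CA replicate 3 was the highest library at this OCR and at that on chromosome 10 named before.

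The remaining OCRs higher in CA lay at rn6 chr5:143847662-143848524, rn6 chr10:38306116-38307023 and rn6 chr15:11256364-11256882, with log2 fold changes of -1.77, -1.70 and -2.44. At the last of these the signal was low, with 0.167, 0.502, 0.574 and 0.463 CPM in DG replicates 1 to 4 and 1.05, 2.38, 2.15 and 3.66 CPM in CA replicates 1 to 4. By the rule that chose them CA was higher in each of the 4 animals at all 8 OCRs. The saline log2 fold changes of the 8 ran from -0.49 to 0.58 with a median of -0.05. The OCRs were chosen on the METH libraries, which by itself brings values nearer to 0 in other libraries. This cannot be told apart here from a dependence on treatment.

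Among the OCRs higher in DG, that with the lowest p lay at rn6 chr2:29748066-29748682. It had 7.36, 6.35, 4.98 and 5.65 CPM in DG replicates 1 to 4 and 2.52, 2.87, 2.804 and 2.82 CPM in CA replicates 1 to 4. The CA libraries were within a narrow range, and all DG libraries, replicate 3 included, were above it. The means were 6.08 ± 1.02 CPM (SD, n = 4) and 2.75 ± 0.159 CPM (SD, n = 4), a log2 fold change of 1.13 and an SE of 0.27 (edgeR unadjusted p = 0.00154, FDR = 0.521). A peak was called in 3 DG libraries and in no CA library. Without DG replicate 3 the log2 fold change was 1.21 (edgeR FDR = 0.0655).

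The OCR at rn6 chr4:80385183-80385707 had 6.02, 5.27, 4.497 and 7.87 CPM in DG replicates 1 to 4 and 2.52, 3.28, 1.802 and 1.16 CPM in CA replicates 1 to 4. DG was higher in every animal, most of all in that of replicate 4, and the fit gave a log2 fold change of 1.44 and an SE of 0.37 (edgeR FDR = 0.521). At rn6 chr9:100694845-100695328 the levels were 5.35, 5.1001, 3.54 and 8.61 CPM in DG replicates 1 to 4 and 2.52, 2.87, 1.35 and 1.44 CPM in CA replicates 1 to 4. DG replicate 3 was the lowest and DG replicate 4 the highest of the DG group there (a log2 fold change of 1.47 and an SE of 0.39, edgeR FDR = 0.521). The most accessible of the 8 OCRs, at rn6 chr11:36589743-36590849, had 35.8, 34.8, 22.96 and 36.9 CPM in DG replicates 1 to 4 and 18.2, 20.4, 20.2 and 17.1 CPM in CA replicates 1 to 4. DG replicate 3 lay close to the CA range and the other DG libraries lay together (a log2 fold change of 0.77 and an SE of 0.20, edgeR FDR = 0.521).

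The other OCRs higher in DG lay at rn6 chr4:141853759-141854473, rn6 chr2:260742746-260743575, rn6 chr1:46393806-46394342 and rn6 chr1:156219553-156220041, with log2 fold changes of 1.27, 1.22, 1.21 and 1.24. DG replicate 3 was the lowest DG library at 7 of the 8 OCRs higher in DG, all but that at rn6 chr4:141853759-141854473. In the saline rats, which did not enter the choice, the 8 OCRs had log2 fold changes of -0.46 to -0.02. The part of the choice on the METH libraries in these values cannot be told apart here from a dependence on treatment. The CA saline values also differed by library set. At rn6 chr11:36589743-36590849 they were 34.8 and 31.0 CPM in set 1 and 14.1 and 13.9 CPM in set 2. No direction was read from the saline values.

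**Figure D4:**
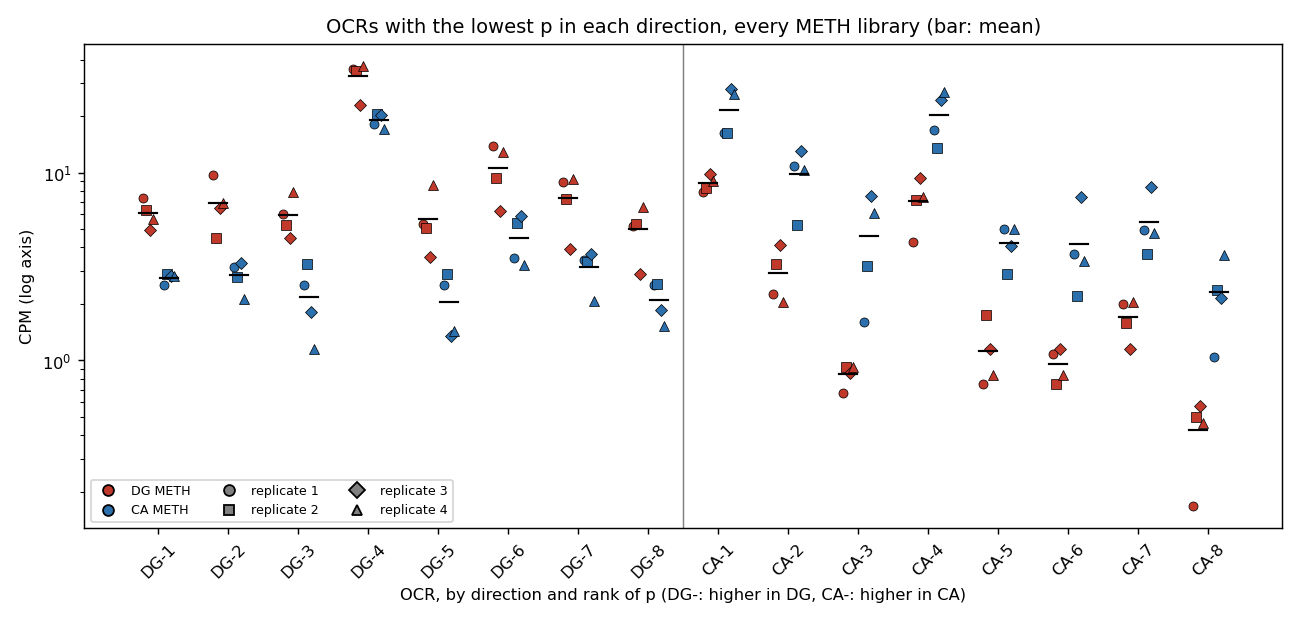
CPM on a log axis in every METH library at the 8 OCRs with the lowest p among those higher in DG (left, DG-1 to DG-8) and at the 8 among those higher in CA (right, CA-1 to CA-8). Red marks DG, blue marks CA, symbols mark replicates and bars are means of 4 libraries. The groups do not overlap by the rule that chose the OCRs, and none passed the FDR threshold in the upper-quartile fit.

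Of the OCRs with a gene name in the study's text, those with coordinates were examined (Gabrb1, Neto1, Tiam2, Sdk2 and St18), and DG and CA values overlapped at each. With 2 RUVr factors 1 of these 5 was called, that of Neto1 (log2 fold change -1.15, edgeR FDR = 0.00223). In that fit Gabrb1 had -0.97 (edgeR FDR = 0.000617), Tiam2 -0.58 (edgeR FDR = 0.0126), Sdk2 -0.75 (edgeR FDR = 0.0334) and St18 -0.11 (edgeR FDR = 0.709). The OCRs named without coordinates beside Tenm4, Etv5, Ptprn2, Drd1 and Drd2 were not analysed here. A TENM4 OCR of the cell adhesion and axon guidance list below, at rn6 chr1:161263943-161264653, had a log2 fold change of 0.10 (edgeR unadjusted p = 0.757). Whether it is the OCR named beside Tenm4 was not tested. The OCR of Gabrb1, which encodes a β subunit of the GABA-A receptor, lies at rn6 chr14:38804098-38805271. It had 3.76, 11.6, 15.98 and 4.17 CPM in DG replicates 1 to 4 and 19.5, 9.27, 15.2 and 20.6 CPM in CA replicates 1 to 4. DG replicates 1 and 4 were far below the CA libraries, while DG replicates 2 and 3 lay within their range. The fit gave a log2 fold change of -0.87 and an SE of 0.48 (edgeR FDR = 0.521), and -1.32 without DG replicate 3 (edgeR FDR = 0.068). Another OCR tied to GABRB1 through its human counterpart, at rn6 chr14:38814789-38815751, had a log2 fold change of -0.16 (edgeR unadjusted p = 0.689).

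The OCR of Neto1, an auxiliary subunit of kainate receptors, lies at rn6 chr18:83486473-83487024. It had 1.67, 5.85, 4.11 and 0.741 CPM in DG replicates 1 to 4 and 9.59, 4.101, 4.81 and 7.41 CPM in CA replicates 1 to 4. The groups overlapped, with DG replicates 1 and 4 again the lowest of all 8 libraries, and the fit gave a log2 fold change of -1.07 and an SE of 0.56 (edgeR FDR = 0.521). The saline rats had 6.97 ± 2.09 CPM (SD, n = 4) in DG there and 5.35 ± 2.89 CPM (SD, n = 4) in CA.

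The OCR of Tiam2, a guanine nucleotide exchange factor for Rac, at rn6 chr1:44418133-44419600, had 6.77, 17.5, 19.6 and 6.85 CPM in DG replicates 1 to 4 and 21.9, 12.3, 17.4 and 21.8 CPM in CA replicates 1 to 4. DG replicates 1 and 4 were the lowest here as well (a log2 fold change of -0.54 and an SE of 0.39, edgeR FDR = 0.536). At the OCR of Sdk2, an adhesion molecule of synapses, at rn6 chr10:102306830-102307559, the levels were 2.68, 2.09, 6.79 and 2.41 CPM in DG replicates 1 to 4 and 7.07, 3.61, 4.96 and 6.94 CPM in CA replicates 1 to 4. DG replicate 3 was above the CA values of replicates 2 and 3, and the other DG libraries were below all CA libraries. The log2 fold change was -0.70 and became -1.25 without DG replicate 3 (edgeR FDR = 0.521 and 0.0655).

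The OCR of St18, a zinc finger transcription factor, at rn6 chr5:12563213-12564343, had 8.28, 8.61, 16.7 and 7.501 CPM in DG replicates 1 to 4 and 3.85, 8.202, 16.02 and 20.05 CPM in CA replicates 1 to 4. The groups overlapped fully, and the log2 fold change was -0.24 and an SE of 0.48 (edgeR FDR = 0.804). DG was higher than CA in the animals of replicates 1, 2 and 3 and lower in that of replicate 4. Without CA replicate 4 the log2 fold change was 0.13, and in library set 1 alone it was 0.48, so its direction rested on CA replicate 4. Another OCR tied to ST18 through its human counterpart, at rn6 chr5:12495571-12496159, had a log2 fold change of 0.71 (edgeR unadjusted p = 0.107).

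Neuronal functions were followed through 6 gene lists. The study lists 814 OCRs whose human counterpart holds a variant that association studies tie to neurological traits. Among those tied to a single gene, 153 belong to 131 genes of the lists, given here by the human symbols. The lists therefore cover a selected part of the OCRs of these genes. Of the 153 OCRs, 148 passed the filter on low counts, and 0 were called. At an unadjusted p under 0.05, 5 of the 148 (3.38%) were higher in DG and 10 (6.76%) higher in CA, where all OCRs tested gave 2.31% and 4.67%. The median log2 fold change was -0.20 over the 148 and -0.11 over all OCRs.

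The ion channel list held 15 tested OCRs, of which 13 had a higher value in CA, as had 53889 of all 95109 OCRs tested. Its median log2 fold change was -0.66 (loess offsets -0.49, without DG replicate 3 -1.16, saline rats 0.20). The medians of all OCRs tested were -0.004 with loess offsets, -0.25 without DG replicate 3 and 0.04 in saline rats. At an unadjusted p under 0.05, 3 of the 15 were higher in CA and 0 higher in DG. The OCR of CACNA1I, a T-type calcium channel, at rn6 chr7:121549294-121549901, had 0.836, 2.51, 1.53 and 1.204 CPM in DG replicates 1 to 4 and 6.51, 3.36, 3.76 and 5.23 CPM in CA replicates 1 to 4. Every CA library was above every DG library, and the fit gave a log2 fold change of -1.64 and an SE of 0.42 (edgeR FDR = 0.521). A peak was called there in all 4 CA libraries and in no DG library. In the saline rats the mean was higher in DG, with 4.69 ± 2.08 CPM (SD, n = 4) in DG and 2.63 ± 1.75 CPM (SD, n = 4) in CA. The saline groups overlapped (edgeR unadjusted p = 0.132). After METH the other CACNA1I OCR of the list had a log2 fold change of -0.90 (edgeR unadjusted p = 0.0931).

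At the OCR of KCNH3, a voltage-gated potassium channel of forebrain neurons, at rn6 chr7:140899644-140900906, the levels were 1.17, 6.19, 5.55 and 2.13 CPM in DG replicates 1 to 4 and 13.1, 6.15, 11.01 and 12.8 CPM in CA replicates 1 to 4. DG replicates 1 and 4 were the lowest, and DG replicate 2 was level with CA replicate 2 (a log2 fold change of -1.52 and an SE of 0.50, edgeR FDR = 0.521). The third OCR, that of CACNB2, a β subunit of voltage-gated calcium channels, at rn6 chr17:81953571-81954830, had a log2 fold change of -0.91, and its groups overlapped.

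The transmitter receptor list, with 12 tested OCRs, had 10 with a higher value in CA, as had 53889 of all 95109 OCRs tested. Its median log2 fold change was -0.66 (loess offsets -0.43, without DG replicate 3 -0.70, saline rats 0.23), but 0 of its OCRs had an unadjusted p under 0.05. The lowest p was at the OCR of LYPD6, a modulator of nicotinic receptors, at rn6 chr3:35678891-35679665, with 6.94, 7.69, 4.21 and 6.57 CPM in DG replicates 1 to 4 and 7.77, 17.6, 7.86 and 7.73 CPM in CA replicates 1 to 4. CA replicate 2 was far above all other libraries, and the log2 fold change was -0.69 and an SE of 0.34 (edgeR FDR = 0.521). The OCR of GRIN2B, an NMDA receptor subunit, at rn6 chr4:169761781-169762388, had a log2 fold change of -0.80 with CA higher in each of the 4 animals and overlapping groups. The other GRIN2B OCR of the list had a log2 fold change of -0.94 (edgeR unadjusted p = 0.176). NETO1, the third, is the OCR of Neto1 given before.

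The cell adhesion and axon guidance list had a median log2 fold change of -0.10 over 33 tested OCRs, next to -0.11 for all OCRs, and 0.01 with relative log expression size factors or DESeq2. At an unadjusted p under 0.05, 4 of the 33 were higher in CA and 0 higher in DG. At the OCR of LRP8, the apolipoprotein E and reelin receptor, at rn6 chr5:127451839-127452831, the levels were 2.51, 5.52, 9.95 and 3.24 CPM in DG replicates 1 to 4 and 10.9, 9.43, 11.2 and 16.02 CPM in CA replicates 1 to 4. CA was higher in each animal, and DG replicate 3 overlapped the CA range (a log2 fold change of -1.17 and an SE of 0.42, edgeR FDR = 0.521). The OCRs of CLSTN2, a calsyntenin of the postsynaptic membrane, at rn6 chr8:105943621-105944350, and of DAG1, dystroglycan, at rn6 chr8:116980594-116981387, had log2 fold changes of -1.45 and -1.04. CA was higher in all 4 animals at both, and DG replicate 3 was the highest DG library at both.

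The signalling list was mixed. Of 26 tested OCRs, 3 were higher in DG and 2 higher in CA at an unadjusted p under 0.05, and the median log2 fold change was -0.18. The OCR of PPP2R2B, a regulatory subunit of protein phosphatase 2A, at rn6 chr18:37422207-37422810, had 7.61, 4.85, 3.16 and 9.26 CPM in DG replicates 1 to 4 and 3.57, 3.44, 1.302 and 1.204 CPM in CA replicates 1 to 4. DG was higher in each animal, but DG replicate 3 was below CA replicates 1 and 2 (a log2 fold change of 1.39 and an SE of 0.48, edgeR FDR = 0.521). The other PPP2R2B OCR of the list, at rn6 chr18:37420351-37422005, had a log2 fold change of 0.35 (edgeR unadjusted p = 0.265). The wide and strongly open OCR of ERBB4, a neuregulin receptor, at rn6 chr9:76176968-76180011, had 101, 73.1, 30.6 and 77.5 CPM in DG replicates 1 to 4 and 42.9, 51.8, 40.004 and 23.1 CPM in CA replicates 1 to 4. DG replicate 3 was below 3 of the 4 CA libraries, and the other DG libraries were above all of them (a log2 fold change of 0.83 and an SE of 0.35, edgeR FDR = 0.521). The OCR of NTRK3, the neurotrophin-3 receptor, at rn6 chr1:140225197-140225592, had a log2 fold change of -1.19, with CA higher in 3 of 4 animals.

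The list of synaptic and cytoskeletal genes had a median log2 fold change of -0.34 over 22 tested OCRs, with 1 higher in DG and 0 higher in CA at an unadjusted p under 0.05. The 1 was the OCR of DST, dystonin, which links cytoskeletal filaments, at rn6 chr9:38195682-38197033. It had 55.8, 51.5, 24.1 and 47.04 CPM in DG replicates 1 to 4 and 31.9, 37.6, 23.8 and 19.4 CPM in CA replicates 1 to 4, and DG replicate 3 lay within the CA range (a log2 fold change of 0.65 and an SE of 0.29, edgeR FDR = 0.521). The OCRs of PHACTR1, an actin regulator, at rn6 chr17:23557078-23557523, and SGIP1, an endocytic adaptor, at rn6 chr5:122312368-122312933, had log2 fold changes of -1.05 and -0.85 with CA higher in all 4 animals.

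The transcription and chromatin list had a median of 0.13 over 40 tested OCRs (TMM normalization 0.20, loess offsets 0.025, without DG replicate 3 0.21). The list median was above that of each other list under upper-quartile, TMM, relative log expression, loess and DESeq2 scaling. With loess offsets it lay close to the medians of the cell adhesion list, -0.014, and of all OCRs tested, -0.004. In the list 25 of the 40 had a higher value in DG, compared with 43.3% of all OCRs tested. At an unadjusted p under 0.05, 1 was higher in DG and 1 higher in CA. The OCR of ZNF423, a zinc finger factor of neural development, at rn6 chr19:20217184-20217862, had 2.26, 3.26, 4.31 and 3.52 CPM in DG replicates 1 to 4 and 6.16, 5.495, 7.51 and 6.204 CPM in CA replicates 1 to 4. All CA libraries were above all DG libraries (a log2 fold change of -0.94 and an SE of 0.29, edgeR FDR = 0.521). In the saline rats the DG mean was the higher, with 6.24 ± 0.644 CPM (SD, n = 4) against 4.14 ± 1.07 CPM (SD, n = 4). The saline groups overlapped (edgeR unadjusted p = 0.078). The OCRs of HIVEP1, a zinc finger factor that binds immune gene enhancers, at rn6 chr17:22405977-22406245, and RXRA, a retinoid X receptor, at rn6 chr3:6261391-6261781, had log2 fold changes of 0.75 and 1.23. With top-decile share in the model the value of this RXRA OCR was -0.017. The other RXRA OCR of the list, at rn6 chr3:6264919-6265279, had a log2 fold change of 0.10 (edgeR unadjusted p = 0.769).

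**Figure D5:**
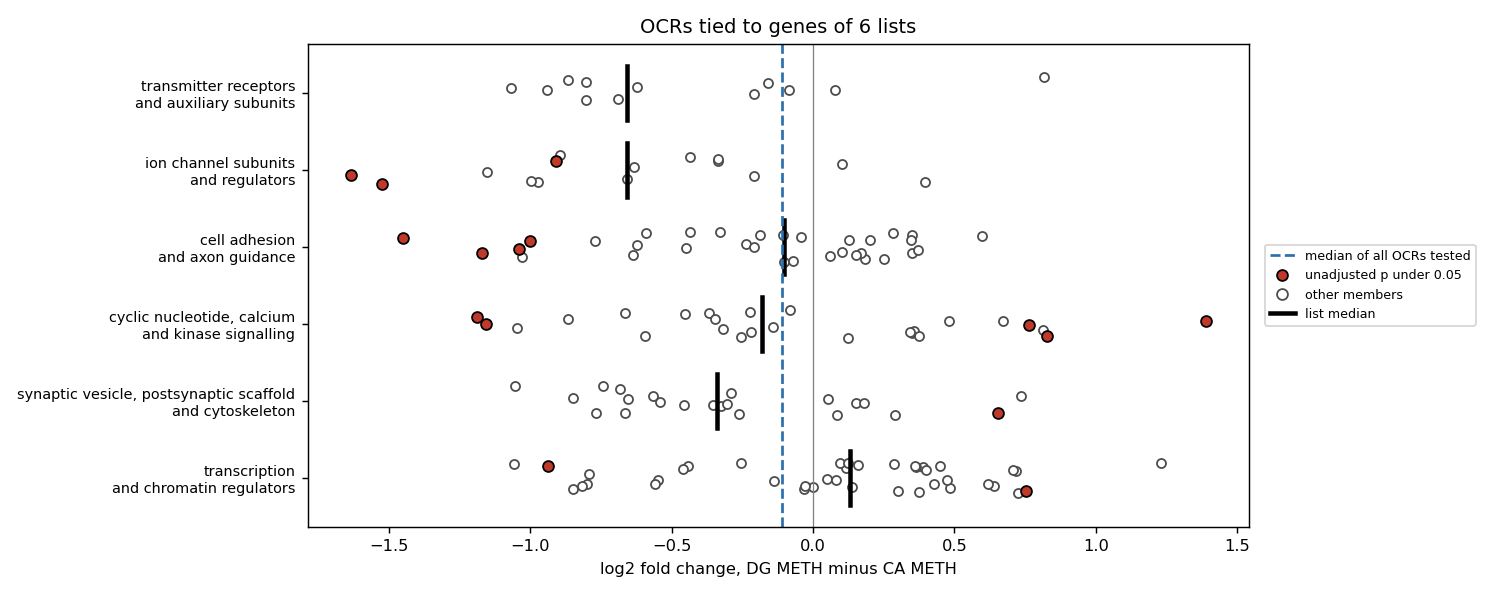
Log2 fold change between DG and CA after METH (horizontal axis, DG minus CA) of the 148 tested OCRs tied to genes of 6 lists. Each point is an OCR, filled where its unadjusted p was under 0.05, thick bars are list medians and the dashed line is the median of all OCRs tested, -0.11. List medians run from -0.66 to 0.13.

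Presence of peaks gave a more lopsided picture than the counts. A peak was called in all 8 METH libraries at 32175 OCRs (32.8%) and in none of them at 8579 (8.73%). All 4 DG libraries had a peak at 34158 OCRs (34.8%) and all 4 CA libraries at 48178 (49.0%). OCRs with a peak in every CA library and in no DG library numbered 465 (0.473% of OCRs), and those with a peak in every DG library and in no CA library numbered 8 (0.00814%). The CA libraries also had more peaks in each animal, and the part of that excess in these counts was not tested.

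The 465 OCRs had a median of 3.08 CPM and a median log2 fold change of -0.96, with a range from -2.14 to 0.44, and 259 of them had an unadjusted p under 0.05, compared with 6634 of 95109 OCRs (6.98%) in all. The peaks were called from the same reads, so these values were set by the selection and are descriptions. The 8 OCRs of the other pattern had log2 fold changes of 0.47 to 1.13. Of the 465, 1 also had a peak in every CA library and no DG library after saline, where 74 OCRs had this pattern. None of the 8 did so among the 2 OCRs with the DG pattern after saline.

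The saline libraries of the same subfields were set beside the METH libraries. In the saline rats edgeR called 0 of 95419 OCRs, and 347 (0.364%) had an unadjusted p under 0.05 (1911 with the replicate block), of which 316 were higher in DG and 31 higher in CA. The saline counts ran from 151 (without CA replicate 1) to 4102 (without CA replicate 4) when 1 library was left out. Across 94630 OCRs tested in both, which are not independent replicates, the METH and saline log2 fold changes had a Pearson correlation of -0.28 and a Spearman correlation of -0.27, and 40.5% had the same sign. The comparisons share no library, but the Pearson value ran from -0.53 (without CA saline replicate 3) to 0.27 (without CA saline replicate 2), so it rested on single saline libraries and no direction was read from it.

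Whether the DG to CA difference depended on treatment was tested as an interaction in the 16 libraries. By edgeR's quasi-likelihood test 0 of 98237 OCRs passed (0%), the lowest FDR was 0.722, and 3715 (3.78%) had an unadjusted p under 0.05. Of these, 1042 were shifted towards DG and 2673 towards CA after METH under upper-quartile scaling, but 3379 and 1684 under TMM normalization, so the direction depended on the scaling. The median of the interaction over all OCRs was -0.20 under the first and 0.02 under the second. DESeq2 called 0, with 7319 at an unadjusted p under 0.05. Without DG METH replicate 3 there were 15474, and without CA saline replicate 2 there were 1574.

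Among the OCRs named here the lowest interaction p belonged to that at rn6 chr3:10131347-10131836, where METH rats had a log2 fold change of -1.92 and saline rats 0.58 (interaction -2.50, edgeR unadjusted p = 0.000111, FDR = 0.722). The saline rats had 3.25 ± 1.15 CPM (SD, n = 4) in DG and 2.16 ± 0.342 CPM (SD, n = 4) in CA, against 1.12 ± 0.455 CPM (SD, n = 4) and 4.24 ± 1.02 CPM (SD, n = 4) after METH. ZNF423 followed with an interaction of -1.52 (edgeR unadjusted p = 0.000765, FDR = 0.722) and CACNA1I with -2.45 (edgeR unadjusted p = 0.00177, FDR = 0.722). All 3 OCRs were chosen for a low p between the METH libraries, so their interaction values are descriptions.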

How the data were processed

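Omni-ATAC libraries were made by the authors from frozen tissue. The authors processed reads with the AIAP pipeline, called peaks in each library and merged them into 1 set of OCRs on rn6, with bedtools among the tools in the submitters' processing notes. How reads were shifted for the transposase and counted, and with which versions, the sources used here do not say. The deposited table holds raw read counts per OCR. The deposited peak lists give each peak's fold enrichment as a ratio and its p and q values as −log10, and these were used here to count and filter peaks. ATAC-seq reads without molecular identifiers are not independent molecules.

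The 8 METH libraries were fitted in R 4.3.3 with edgeR 4.0.16 (upper-quartile normalization, filterByExpr, trended dispersion, robust quasi-likelihood F test, Benjamini-Hochberg FDR), and a call needed a fold change above 2 and an FDR under 0.01. CPM used the upper-quartile library sizes, separately for METH and saline libraries, so CPM of METH and saline rats were set side by side and tested only in the interaction model. Log2 CPM had a prior count of 2. Peaks and OCRs were intersected with bedtools 2.31.1 at an overlap of 1 bp. Single values were compared by two-sided exact permutation tests, which cannot go below p = 0.0286 with 4 against 4 libraries and 0.333 within a library set. Whether replicates were separate libraries of separate animals follows from the animal numbers in the peak names. By these names equal replicate numbers are the same animal in DG and CA, and the deviations of such pairs from their group means correlated at -0.08, -0.17, 0.08 and -0.43. The animal was therefore also fitted as a block. The code of the fits was checked on simulated independent counts with large changes added. These held no animal effect, no gradient with accessibility and no library like DG replicate 3. How the fits perform under those was not tested.

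Named OCRs were, in each direction, the 8 largest called OCRs with at least 1 CPM and groups that do not overlap, filled in order of p where fewer were called (here all 16), the OCRs of 5 genes in the study's text, and the 3 lowest p values of each of 6 gene lists. Those lists use the study's table of OCRs whose human counterpart holds a variant of a neurological trait. From it the gene name alone was taken, where a single gene was given. The comparison, lists and rules were chosen with earlier results of these data known. Alternatives were TMM, relative log expression, loess offsets, other filters, DESeq2 1.42.0, the block, library set as a covariate or alone, all 29 libraries, RUVr factors (computed with own code), top-decile share as covariate, and leaving out libraries. Positions of OCRs relative to genes, marker genes and sequences were not analysed here, and libraries of the other regions were used only in the model of 29 libraries.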

Additional observations from a re-analysis of the deposited data

Results flagged for a closer look

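A sample was examined more closely where its gap to the nearest other sample of its group of 4 was large against the group's range (Dixon's test at 95%). Of 84 groups tested, 6 met this, where chance flags about 5%, so the number was near that share. Most groups are the same libraries read at OCRs chosen for a low p, so they are not independent. No trait of a library was read from the flags. In 4 of them the sample was DG METH replicate 3, with 22.96 CPM at rn6 chr11:36589743-36590849, 16.7 CPM at the St18 OCR, 6.79 CPM at the Sdk2 OCR and 3.92 CPM at the HIVEP1 OCR. In the other 2 it was CA METH replicate 2, with 17.6 CPM at the LYPD6 OCR and 1.804 CPM at the GRIN2B OCR.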

How the results depend on the processing

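The count of called OCRs was 0 in each direction under every alternative run except 2 factors of RUVr, the method the study used. There 310 of 95109 OCRs were called higher in DG and 6061 higher in CA. These factors are built from the residuals that the region fit itself leaves. The median SE was 0.26 with 2 factors and 0.40 in the upper-quartile fit. Whether the FDR is too low with such factors was not tested. With 1 factor 0 were called, and 8121 OCRs had an FDR under 0.05. The replicate block (pairing by animal) left 0 called in both directions and changed no other call, and its p for the peak number was 0.125. The number of OCRs with a peak in every DG and no CA library was 15 with an overlap of at least 50% of the OCR. The difference in total counts was 1.11 M in library set 1 alone, opposite to the whole. The Pearson correlation of METH and saline log2 fold changes ran from -0.53 to 0.27 over leave-one-out settings. Of 988 values of 38 named OCRs under the alternatives, 5 changed direction. They were 0.48 (library set 1), 0.32 (top-decile share as covariate), 0.13 (without CA replicate 4) and 0.25 (without replicate 4 of both regions) at St18, and -0.017 at RXRA (top-decile share as covariate). Leaving out 1 library moved St18 between -0.59 and 0.13. With 2 RUVr factors 23 of the named OCRs were called, most of the named having been chosen for a low p in the same libraries. The interaction count was 0 under all its alternatives. The count at an unadjusted p under 0.05 ran from 746 (without replicate 4 of both regions) to 38782 (2 RUVr factors). The limit that depth sets was not tested.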
